A study of Mus musculus with 16 samples.

Results

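The genes described here are *Trp53*, which encodes the transcription factor p53, and 9 genes known as its regulators or targets, *Mdm2*, *Mdm4*, *Ccng1*, *Phlda3*, *Bax*, *Bbc3*, *Trp53inp1*, *Sesn2* and *Zmat3*. They were found by gene name in a table of 46078 genes, where each of the 10 names stood on 1 line, and 9 of them had enough counts to be tested. Their counts were read in HSCs that differed in surface MAC-1, an integrin of myeloid cells, and that were taken at steady state (SS) or 4 weeks into regeneration. All cells came from wild-type (WT) B6.SJL mice and were sorted from cKit-enriched bone marrow as live Lin-, cKit+, Sca1+, CD48- and CD150+ cells. The SS MAC-1- (n = 3) and SS MAC-1low (n = 3) populations were labelled untreated. The 4 week MAC-1- (n = 3), 4 week MAC-1low (n = 4) and 4 week MAC-1+ (n = 3) populations came from recipients given 900 cGy of irradiation and 8000 LSK cells. The same transplantation text stands with the labels of the SS samples, and the group labels were followed. The labels do not say whether samples of 1 population came from separate mice, so the p-values measure the spread between these samples, which may be technical. RNA was copied with SMART-Seq v4, which amplifies whole transcripts from small numbers of sorted cells and adds no molecular identifiers.

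The samples held 13781278 to 28580658 counts (median 18817813), between 14533 and 17576 genes had at least 1 count, and mitochondrial genes took 3.96% to 9.62% of the counts. Of 10 genes that mark HSCs or are gated in the sort, 9 were counted in all 16 samples. *Cd48*, the gene of the marker the sort excludes, was at 0 in only 3. Levels are given as CPM, counts relative to library size, with edgeR's TMM factors as the scale between samples. A count of 0 allowed up to 3 counts, which was 0.112 to 0.220 CPM depending on the sample and covers counting error only. *Cd48* had a median of 43.8 CPM and a maximum of 133 CPM. *Slamf1*, the gene of the sorted marker CD150, had a median of 50.2 CPM and a minimum of 0.126 CPM, within the range of these limits. Every sample is a pool of sorted cells, so fewer cells of a type and less RNA per cell cannot be told apart.

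p53 is held at a low level by MDM2, a ubiquitin ligase that marks it for degradation, and by MDM4, a relative that binds p53 and blocks its activity. After DNA damage or other stress p53 is stabilized, binds DNA as a tetramer and switches on genes of cell cycle arrest, repair, metabolism and death, among them *Mdm2* itself. In HSCs p53 is known for its part in quiescence and in the response to irradiation. The activity of p53 is set largely at the level of the protein, which was not measured here.

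The p53 response element is made of a pair of half-sites of 10 bases, and 4 of the members have an exact match of the half-site consensus close upstream of their start. These stretches are shown as matches to the consensus of the factor the gene list is named for. They come from RefSeq promoter windows of 300 bases on GRCm38.p6 (250 bases before to 50 after the start), which were given for 8 of the 10 members. Half-sites are in capitals, and each has 10 flanking bases on either side. The start of each match is given in bases from the start site.
*Trp53* (chr11:69580274-69580303, + strand, -75): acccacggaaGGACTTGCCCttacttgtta
*Mdm2* (chr10:117710925-117710954, - strand, -186): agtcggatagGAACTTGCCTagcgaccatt
*Ccng1* (chr11:40755452-40755491, - strand, -195): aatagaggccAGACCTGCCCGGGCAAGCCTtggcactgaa
*Bax* (chr7:45467080-45467120, - strand, -212): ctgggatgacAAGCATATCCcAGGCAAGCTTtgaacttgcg

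The consensus reads the same on both strands, so 1 search covered both. In *Ccng1* and *Bax* the exact half-site is the second in capitals, and the first half-site differs from the consensus at 1 base, with a spacer of 0 bases in *Ccng1* and 1 base in *Bax*. An exact half-site was found in 8.356% of all 32851 windows, and a pair with at most 2 mismatches and at most 13 bases between them in 10.07%. The windows of *Mdm4*, *Phlda3*, *Bbc3* and *Sesn2* held neither. A match is a description of these letters and not a measured binding site.

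Per kilobase of exon, *Ccng1* had the highest mean level of the 10 genes over all samples, at 34.3 CPM per kb. *Bax* (16.6 CPM per kb), *Trp53* (12.7), *Mdm2* (8.49), *Mdm4* (7.05) and *Trp53inp1* (6.81) followed. These 6 genes had between 81 and 4747 counts in every sample. *Sesn2* (0.652 CPM per kb), *Bbc3* (0.602), *Zmat3* (0.459) and *Phlda3* (0.0816) were far lower, and 3 of these 4 had samples at 0. For the 6 well counted genes, the highest population mean was 1.495 to 2.95 times the lowest.

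**Figure D1:**
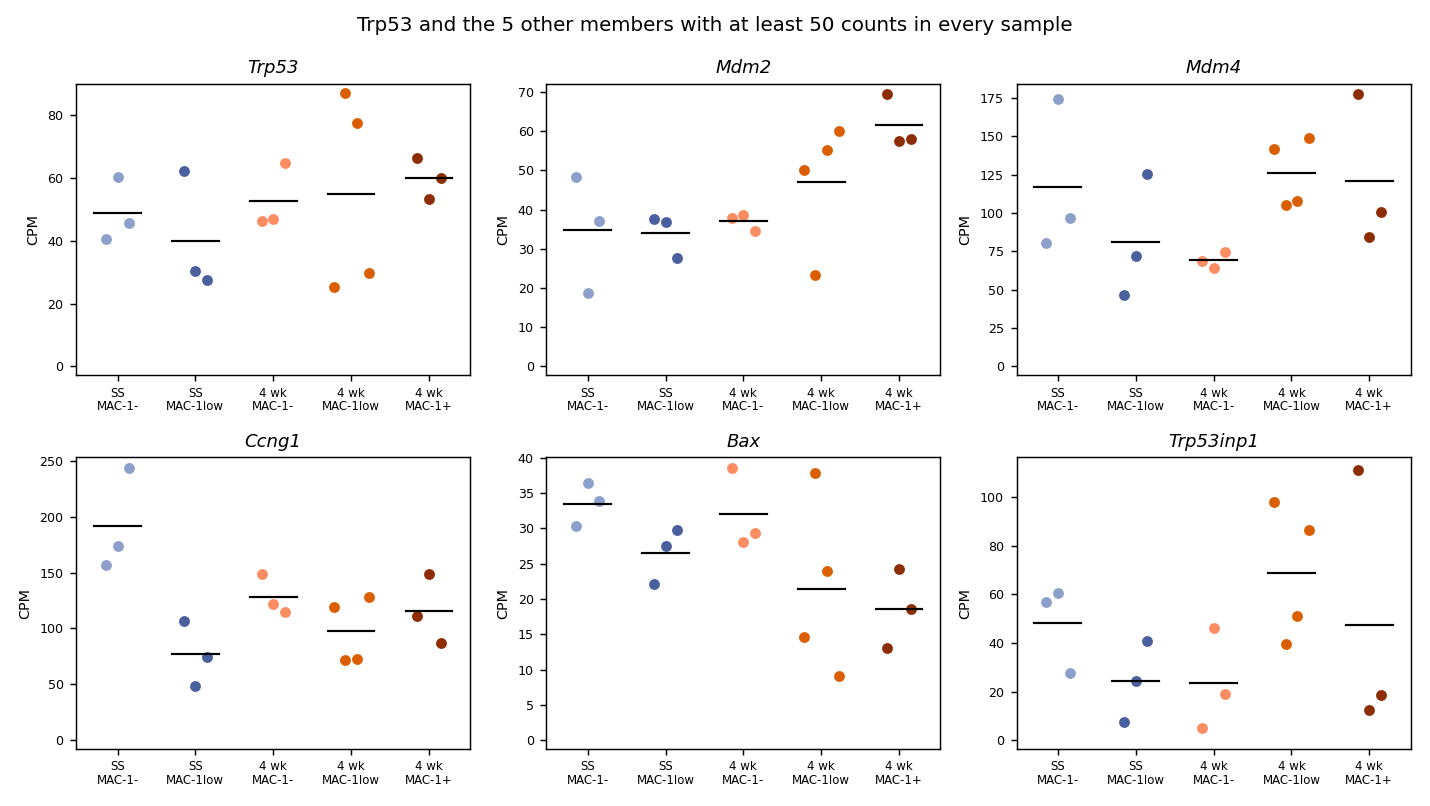
CPM (vertical axes, linear, from 0) of *Trp53*, *Mdm2*, *Mdm4*, *Ccng1*, *Bax* and *Trp53inp1* in each of the 16 samples by population, with points for samples and lines for the population mean. For *Mdm2* the 3 samples of 4 week MAC-1+ HSCs lie at 57.5 to 69.6 CPM, a range that among the others only 4 week MAC-1low replicate 4 reaches, and for *Ccng1* the 3 SS MAC-1- samples lie highest.

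Expression of *Trp53* (chromosome 11, 69580359 to 69591873, + strand) did not separate the populations. It was 40.6, 60.4 and 45.6 CPM in the SS MAC-1- samples, 62.4, 30.5 and 27.4 CPM in SS MAC-1low and 46.4, 47.1 and 64.9 CPM in 4 week MAC-1-. In 4 week MAC-1low HSCs it was 25.3, 87.1, 77.7 and 29.7 CPM, and in 4 week MAC-1+ 66.5, 53.3 and 60.2 CPM. The 4 week MAC-1low samples held both the lowest and the highest values of all 16. Population means ran from 40.1 ± 19.4 CPM (SD, n = 3) in SS MAC-1low to 60.0 ± 6.63 CPM (SD, n = 3) in 4 week MAC-1+, and each pair of neighbours in that order overlapped. In edgeR's test of any difference between the 5 populations *Trp53* had an adjusted p of 1.00. Its log2 fold change was 0.18 in 4 week MAC-1+ against MAC-1- HSCs (95% interval -0.88 to 1.25) and -0.28 in SS MAC-1low against MAC-1- (-1.35 to 0.78), intervals that include a 1.5-fold change in either direction. A pseudogene, *Trp53-ps*, shares stretches of exon sequence with *Trp53*, and 3.95% of its 50-base stretches occur in other genes.

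The negative regulators had their highest mean in 4 week MAC-1+ or MAC-1low HSCs, but neither passed the test. *Mdm2* (chromosome 10, 117688875 to 117710758, - strand) was at 69.6, 57.5 and 57.9 CPM in the 4 week MAC-1+ samples and at 37.8, 38.6 and 34.5 CPM in 4 week MAC-1-. It was 49.96, 23.3, 55.1 and 60.1 CPM in 4 week MAC-1low, 48.3, 18.7 and 37.1 CPM in SS MAC-1- and 37.5, 36.9 and 27.5 CPM in SS MAC-1low. The 4 week MAC-1+ samples lay above all samples of the SS populations and of 4 week MAC-1-, and overlapped with 4 week MAC-1low. Against 4 week MAC-1- the log2 fold change was 0.74 ± 0.45 (SE, edgeR adjusted p = 0.526). In the joint test the adjusted p of *Mdm2* was 0.684.

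*Mdm4* (chromosome 1, 132959484 to 133030561, - strand) was lowest in 4 week MAC-1- HSCs, with 68.5, 64.4 and 74.7 CPM. All samples of both other 4 week populations lay above these values, at 142, 105, 108 and 149 CPM in MAC-1low and 178, 84.4 and 101 CPM in MAC-1+. At SS, MAC-1- samples had 80.2, 174 and 96.9 CPM and MAC-1low samples 46.6, 72.0 and 126 CPM. At 4 weeks the log2 fold change of MAC-1low against MAC-1- was 0.86 ± 0.38 (SE, edgeR adjusted p = 0.641, unadjusted 0.0387), and at SS it was -0.52 ± 0.40 (edgeR adjusted p = 0.771). The difference between these 2 changes was 1.39 ± 0.55 (SE, edgeR adjusted p = 0.491, unadjusted 0.0238), so that it did not pass the test over all genes. The pseudogene *Mdm4-ps* and other genes share 7.31% of the 50-base stretches of *Mdm4*.

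*Ccng1* (chromosome 11, 40748552 to 40755311, - strand) encodes cyclin G1, a p53 target that acts on the cell cycle and on MDM2. It had the smallest joint adjusted p of the members, 0.245 in edgeR (unadjusted 0.0166). It was 156, 174 and 243 CPM in SS MAC-1- samples and 107, 48.7 and 74.4 CPM in SS MAC-1low, so the SS populations did not overlap. At 4 weeks it was 148, 122 and 114 CPM in MAC-1-, 119, 71.9, 72.5 and 128 CPM in MAC-1low and 111, 149 and 87.3 CPM in MAC-1+. The SS MAC-1- samples lay above all other 13 samples. The log2 fold change of SS MAC-1low against SS MAC-1- was -1.32 ± 0.35 (SE, edgeR adjusted p = 0.409, unadjusted 0.00187). DESeq2 gave an adjusted p of 0.0138 for it and 0.0637 for the joint test, past the threshold of 0.1. Over all alternatives the adjusted p of the SS difference ran from 0.0138 to 0.898, and leaving out any 1 sample in edgeR gave 0.242 to 0.657.

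Of the death genes, *Bax* (chromosome 7, 45461697 to 45466898, - strand), whose protein opens the outer mitochondrial membrane, was lowest in 4 week MAC-1+ HSCs. There it was 13.1, 24.3 and 18.6 CPM, against 38.6, 28.1 and 29.4 CPM in 4 week MAC-1- and 14.6, 37.9, 23.9 and 9.07 CPM in 4 week MAC-1low. SS MAC-1- samples had 30.3, 36.4 and 33.8 CPM and SS MAC-1low 22.2, 27.6 and 29.9 CPM. At 4 weeks the MAC-1+ and MAC-1- samples did not overlap, nor did those of both SS populations, while the 4 week MAC-1low samples spanned nearly the whole range. The log2 fold change of 4 week MAC-1+ against MAC-1- was -0.78 ± 0.56 (SE, edgeR adjusted p = 0.625), and in the joint test the adjusted p was 0.871. *Bax* and *Gm45808* overlap on 1 strand, and 8.51% of the 50-base stretches of *Bax* are shared.

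*Bbc3* (chromosome 7, 16308393 to 16318205, + strand), which encodes PUMA, a BH3 protein that frees the death programme, was near the limit of counting at 1 to 64 counts per sample. It was 2.27, 0.0524 and 3.28 CPM in SS MAC-1- and 0.783, 0.112 and 1.29 CPM in SS MAC-1low. At 4 weeks it was 1.51, 1.29 and 1.69 CPM in MAC-1-, 0.736, 1.38, 1.75 and 2.10 CPM in MAC-1low and 0.855, 0.188 and 1.19 CPM in MAC-1+. The 4 week MAC-1+ samples lay below the 4 week MAC-1- samples, with a log2 fold change of -0.999 (95% interval -4.22 to 2.22), and its joint adjusted p was 1.00 in edgeR. The closest of these samples were MAC-1+ replicate 3 with 30 counts and MAC-1- replicate 2 with 34.

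*Trp53inp1* (chromosome 4, 11156431 to 11174379, + strand) encodes a nuclear protein that acts on p53 and in autophagy, and it was the most variable of the 6 well counted members. It ran from 5.08 CPM in a 4 week MAC-1- sample to 111 CPM in a 4 week MAC-1+ sample. The 4 week MAC-1low samples had 98.2, 39.4, 51.1 and 86.6 CPM and the 4 week MAC-1+ samples 111, 12.4 and 18.7 CPM. SS MAC-1- samples had 56.9, 60.5 and 27.7 CPM, SS MAC-1low 7.62, 24.3 and 40.7 CPM and 4 week MAC-1- 5.08, 46.0 and 18.9 CPM. All 5 populations overlapped with a neighbour in the order of the means, and the joint adjusted p was 0.721 in edgeR.

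The remaining targets were sparse. *Zmat3* (chromosome 3, 32334792 to 32366014, - strand) encodes an RNA-binding zinc finger protein, and *Sesn2* (chromosome 4, 132492032 to 132510501, - strand) encodes sestrin 2, a sensor of the amino acid and stress response that restrains mTORC1. *Zmat3* had 0, 1 and 0 counts in the SS MAC-1- samples, 12, 2 and 153 in those of SS MAC-1low and 94, 155 and 1 in 4 week MAC-1-. It had 126, 8, 144 and 0 counts in 4 week MAC-1low and 925, 1 and 100 in 4 week MAC-1+. In each of the 4 populations other than SS MAC-1-, at least 1 sample had 2 counts or fewer beside others with 100 or more. Against the 1 count of SS MAC-1-, the 167 counts of SS MAC-1low gave a ratio of 155 after scaling (95% exact interval 27.4 to 6139), and the 250 counts of 4 week MAC-1- a ratio of 222 (39.4 to 8793). Of the 167 counts 153 came from replicate 3, and without that sample the ratio was 19.7 (3.00 to 834). The ratio of 4 week MAC-1- was 153 to 307 when any 1 of its samples was left out. These intervals cover counting error of reads only. They leave out amplification and the spread between samples, so they do not bound the difference between the populations. In edgeR both comparisons missed the threshold, with adjusted p of 0.521 and 0.427 (unadjusted 0.0332 and 0.0268). The mean of MAC-1- and MAC-1low at 4 weeks against SS had an edgeR adjusted p of 0.377 for *Zmat3* (unadjusted 0.0447).

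*Sesn2* was at 0 in 7 of the 16 samples, including all 3 SS MAC-1- samples. It had 1, 0 and 386 counts in SS MAC-1low, 33, 22 and 0 in 4 week MAC-1-, 0, 58, 74 and 0 in 4 week MAC-1low and 22, 2 and 146 in 4 week MAC-1+. Nearly all of the SS MAC-1low level rested on replicate 3. Replicates 1 and 2, at 1 and 0 counts, lay under the limit of 3 counts, as did the SS MAC-1- samples. The bound for SS MAC-1low that follows therefore rests on replicate 3 alone. Against the limit of 3 counts per library in SS MAC-1-, the mean of SS MAC-1low was at least 37.6-fold higher and that of 4 week MAC-1- at least 5.47-fold higher, and the edgeR adjusted p were 0.521 and 0.498.

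*Phlda3* (chromosome 1, 135766119 to 135769136, + strand), whose protein competes with Akt for membrane lipids, was not tested. It was at 0 in 11 samples and had 1 or 2 counts in 4 others, while 4 week MAC-1- replicate 2 had 47 counts (1.78 CPM).

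**Figure D2:**
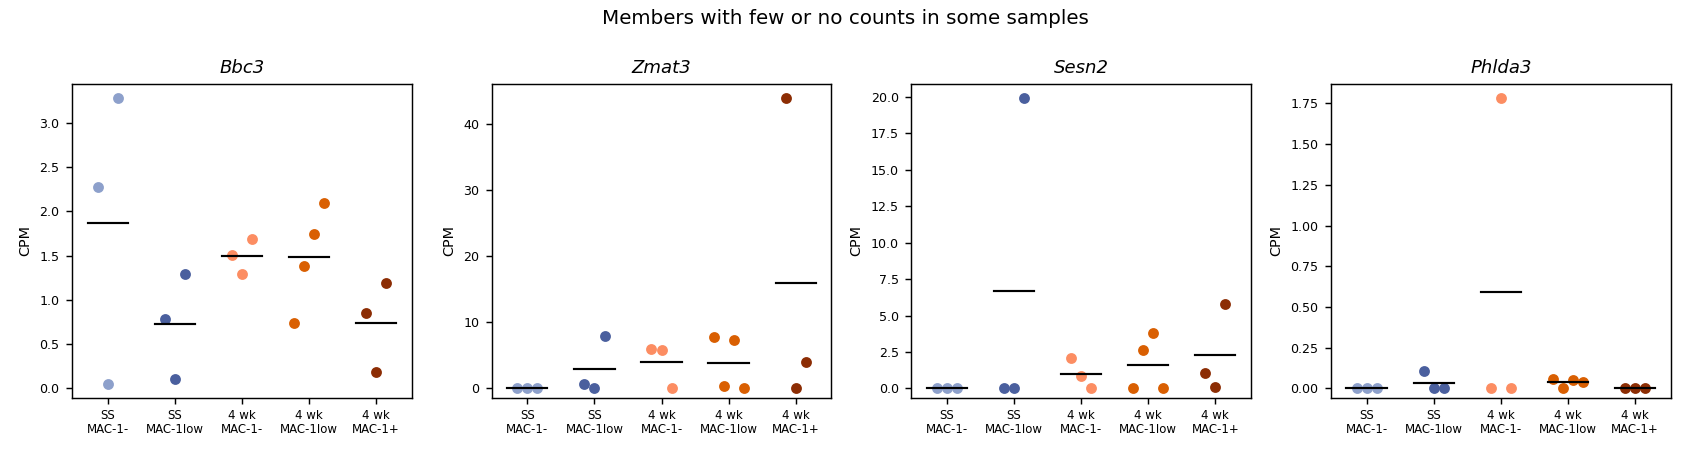
CPM (vertical axes, linear, from 0) of *Bbc3*, *Zmat3*, *Sesn2* and *Phlda3* in each of the 16 samples by population, with points for samples and lines for the population mean. A single sample sets most of the mean of *Sesn2* in SS MAC-1low (19.9 CPM), of *Zmat3* in 4 week MAC-1+ (43.9 CPM) and of *Phlda3* in 4 week MAC-1- (1.78 CPM).

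With edgeR, 0 of the 9 tested members were called at an adjusted p below 0.1 in the joint test of the 5 populations, where 2.22% of the 13661 genes tested were called. At an unadjusted p below 0.05 there was 1 member, *Ccng1*, and 13.8% of all genes. DESeq2 called 1 member, *Ccng1*, and 10.9% of all genes, and limma-voom called 0 members and 2.78% of all genes. The same was asked of each comparison of MAC-1 level and of time. No member was called by edgeR or limma-voom in 4 week MAC-1+ against MAC-1- (3.25% of all genes called by edgeR), 4 week MAC-1low against MAC-1- (0.278%), 4 week MAC-1+ against MAC-1low (0%) and SS MAC-1low against MAC-1- (0.0146%). The same held for 4 week against SS in MAC-1- (0.432%), in MAC-1low (0.0439%) and in their mean (0.864%), and for the interaction of MAC-1low against MAC-1- with time (0.0586%). In the order given, limma-voom called 6.34%, 2.26%, 0.00732% and 0% of all genes in the comparisons of MAC-1 level and 0.608%, 0.176%, 1.94% and 0.117% in the others. At an unadjusted p below 0.05 in edgeR there were 0, 1, 0 and 3 members in the comparisons of MAC-1 level, beside 13.4%, 7.25%, 6.85% and 9.36% of all genes. In the others there were 1, 0, 1 and 1, beside 10.4%, 8.89%, 12.6% and 8.73%. DESeq2 called 3 members in SS MAC-1low against MAC-1- (*Ccng1*, *Zmat3* and *Sesn2*, beside 5.6% of all genes) and 2 in 4 week against SS MAC-1- HSCs (*Zmat3* and *Sesn2*, beside 6.83%). It called *Sesn2* alone in the mean of time (8.51% of all genes) and in the interaction (4.68%). In the remaining comparisons it called 0 members, beside 10.2% of all genes in 4 week MAC-1+ against MAC-1-, 3.12% in 4 week MAC-1low against MAC-1-, 2.42% in 4 week MAC-1+ against MAC-1low and 4.01% in 4 week against SS MAC-1low HSCs. Of the members DESeq2 called, only *Ccng1* had counts in all samples compared.

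**Figure D3:**
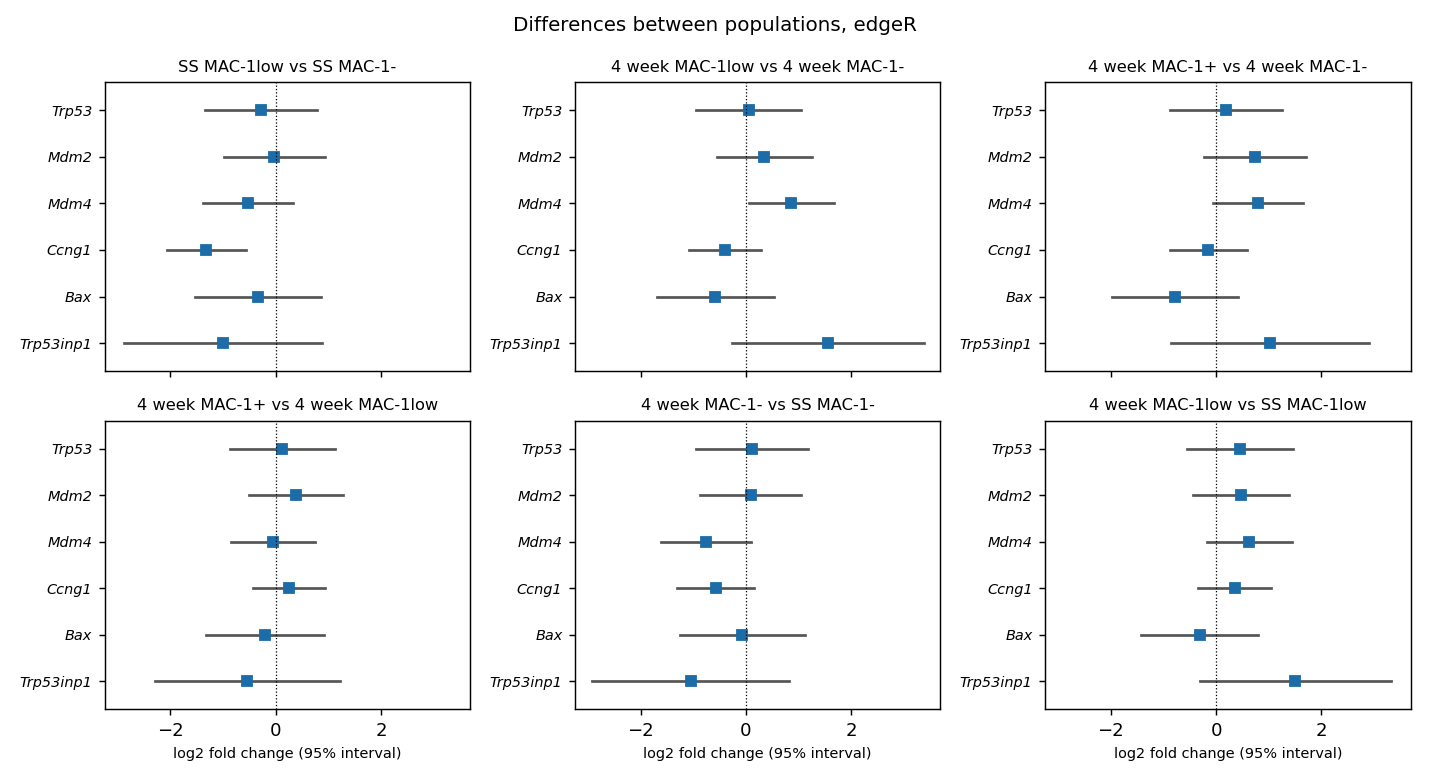
Log2 fold changes with 95% intervals (horizontal axes, edgeR) of *Trp53*, *Mdm2*, *Mdm4*, *Ccng1*, *Bax* and *Trp53inp1* in 6 comparisons, with squares for the estimate and lines for the interval. The interval lay wholly on 1 side of 0 for *Ccng1* in SS MAC-1low against MAC-1- (-2.07 to -0.57) and for *Mdm4* in 4 week MAC-1low against MAC-1- (0.05 to 1.68).

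The median log2 fold change of the tested members was 0.74 in 4 week MAC-1+ against MAC-1- HSCs, where that of all genes was 0.07. This median is the value of *Mdm2* (edgeR adjusted p = 0.526). The changes ran from -0.999 to 2.02, with 6 members positive and 3 negative, beside 52.4% positive of all genes. Of the members, 0 had an unadjusted edgeR p below 0.05. For *Zmat3* and *Trp53inp1*, MAC-1+ replicate 1 (43.9 and 111 CPM) lay far above replicates 2 and 3. A shift of the members as a set was not tested. In 4 week MAC-1low against MAC-1- the median of the members was 0.06 (all genes 0.05) and in SS MAC-1low against MAC-1- -0.34 (0.00). For 4 week against SS it was -0.07 (-0.03) in MAC-1- and 0.45 (-0.02) in MAC-1low. In 4 week MAC-1+ against MAC-1- HSCs, 4 members did not overlap between the populations, *Mdm2* and *Mdm4* on the higher and *Bax* and *Bbc3* on the lower side, against 21.7% of all genes. For *Bbc3* this rested on 30 against 34 counts in the closest samples. In 4 week MAC-1low against MAC-1- only *Mdm4* did not (10.8% of all genes), and in 4 week MAC-1+ against MAC-1low 0 members did not (8.23%). In SS MAC-1low against MAC-1- *Ccng1* and *Bax* on the lower and *Zmat3* on the higher side did not overlap (11.3%). For 4 week against SS these were *Mdm4*, *Ccng1* and *Zmat3* in MAC-1- (16.6%) and none in MAC-1low (10.4%). The lowest *Zmat3* samples held 2 counts in SS MAC-1low and 1 count in 4 week MAC-1-, under the limit of 3 counts, so at this depth they cannot be told apart from the SS MAC-1- samples. Each count is out of 9 tested members.

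Summed levels of other gene lists differed between some of the populations compared. The summed level of 9 megakaryocyte genes was 4306 to 6757 CPM in 4 week MAC-1- and 157 to 211 CPM in 4 week MAC-1+ samples, that of 12 proliferation genes was 2223 to 2668 and 1131 to 1671 CPM, and that of 9 neutrophil genes ran from 164 to 7281 CPM within 4 week MAC-1+. Of these lists edgeR called 3 of 8 tested megakaryocyte genes lower, 2 of 7 tested neutrophil genes higher and 0 of 12 proliferation genes in 4 week MAC-1+ against MAC-1-. In the same comparison the 10 HSC genes summed to 2485 to 3674 against 900 to 1077 CPM (5 called, all higher). T and NK cell genes summed to at most 176 against 323 to 644 CPM (1 of 3 tested called, lower) and erythroblast genes to 84.4 to 189 against 23.3 to 37.1 CPM (1 of 6 tested called, higher). Their part in the differences of the members was not tested. At SS the proliferation genes were at 1053 to 1253 CPM in MAC-1- and 1697 to 2380 CPM in MAC-1low, with 0 of 12 called by edgeR in that comparison.

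Over the 36 pairs of tested members the median Pearson r of log2 CPM was 0.05 (range -0.73 to 0.76, n = 16 samples) for member pairs and 0.00 for all pairs of tested genes. *Mdm4* and *Trp53inp1* were the pair with the highest r, 0.76 and 0.66 after subtracting population means, and *Mdm2* and *Bax* the pair with the lowest, -0.73 and -0.65. The genes most like *Trp53* over the 16 samples were *Ttc30b* (r = 0.83), *Gm5555* (0.74) and *Spcs2-ps* (0.73). For *Mdm2* they were *Dph2* (0.86), *Tubgcp6* (0.85) and *Tcf12* (0.82), and for *Ccng1* *0610009B22Rik* (0.86), *Plcb3* (0.84) and *Gm14325* (0.77). The points of each r share 5 populations and are given as a description.

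Beyond the members, 63 further genes of the pathway were listed by role: regulators of p53, and targets in cell cycle, repair, death and metabolism. All 63 were in the table and 57 could be tested. Of these, 2 were called in the joint test (edgeR adjusted p = 0.0298 for *Rchy1* and 0.0203 for *Rps27l*), beside 2.22% of all genes. The call of *Rchy1* in the joint test was lost without 4 week MAC-1- replicate 1 (edgeR adjusted p = 0.117) or replicate 3 (0.118), or without 4 week MAC-1+ replicate 3 (0.107). Both were lower at 4 weeks in MAC-1+ than in MAC-1- HSCs, and these 2 of 57 are the calls of that comparison (3.25% of all genes). No other pathway gene was called in any comparison by edgeR. In the joint test 8 of 57 had an unadjusted p below 0.05, beside 13.8% of all genes. The median log2 fold change of the 57 genes in 4 week MAC-1+ against MAC-1- was 0.14 (all genes 0.07).

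*Rchy1* (chromosome 5, 91948904 to 91963068, - strand) encodes PIRH2, a ubiquitin ligase that acts on p53. It was 305, 228 and 306 CPM in 4 week MAC-1- samples and 76.6, 107 and 72.6 CPM in 4 week MAC-1+. Its level was 153, 147, 141 and 125 CPM in 4 week MAC-1low, 183, 226 and 111 CPM in SS MAC-1- and 157, 140 and 172 CPM in SS MAC-1low. The 3 populations at 4 weeks did not overlap, with MAC-1low between MAC-1- and MAC-1+. The log2 fold change of 4 week MAC-1+ against MAC-1- was -1.71 ± 0.27 (SE, edgeR adjusted p = 0.00371, 0.00181 to 0.0273 when any 1 sample was left out), and of 4 week MAC-1low against MAC-1- -0.98 ± 0.24 (edgeR adjusted p = 0.181, 0.0887 to 0.605 when any 1 sample was left out). In this second comparison DESeq2 (adjusted p = 0.0190) and limma-voom (0.0239) called *Rchy1*, beside 3.12% and 2.26% of all genes. *Rchy1* overlaps *Thap6* on the opposite strand over 680 exon bases, and since the library was not strand-specific, reads there cannot be told apart.

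*Rps27l* (chromosome 9, 66946086 to 66949516, + strand) encodes a relative of ribosomal protein S27 that is a p53 target and binds MDM2. It was 2357, 2369 and 1635 CPM in 4 week MAC-1- samples and 1058, 956 and 837 CPM in 4 week MAC-1+. Between them lay 4 week MAC-1low with 1450, 1192, 1077 and 1222 CPM, and the SS samples had 1554, 1544 and 1975 CPM in MAC-1- and 1437, 1011 and 1357 CPM in MAC-1low. The log2 fold change of 4 week MAC-1+ against MAC-1- was -1.16 ± 0.18 (SE, edgeR adjusted p = 0.00397), and of MAC-1low against MAC-1- -0.78 ± 0.17 (edgeR adjusted p = 0.101, 0.0803 to 0.459 when any 1 sample was left out). In this second comparison DESeq2 (adjusted p = 0.00463) and limma-voom (0.00538) called *Rps27l*, beside 3.12% and 2.26% of all genes. So did edgeR without a filter on low counts (0.0860) and with a stricter filter (0.0827). Of its 50-base stretches 11.2% occur in other genes, among them *Gm14706*. How reads from such stretches were counted is not known, so their effect on its counts was not measured.

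**Figure D4:**
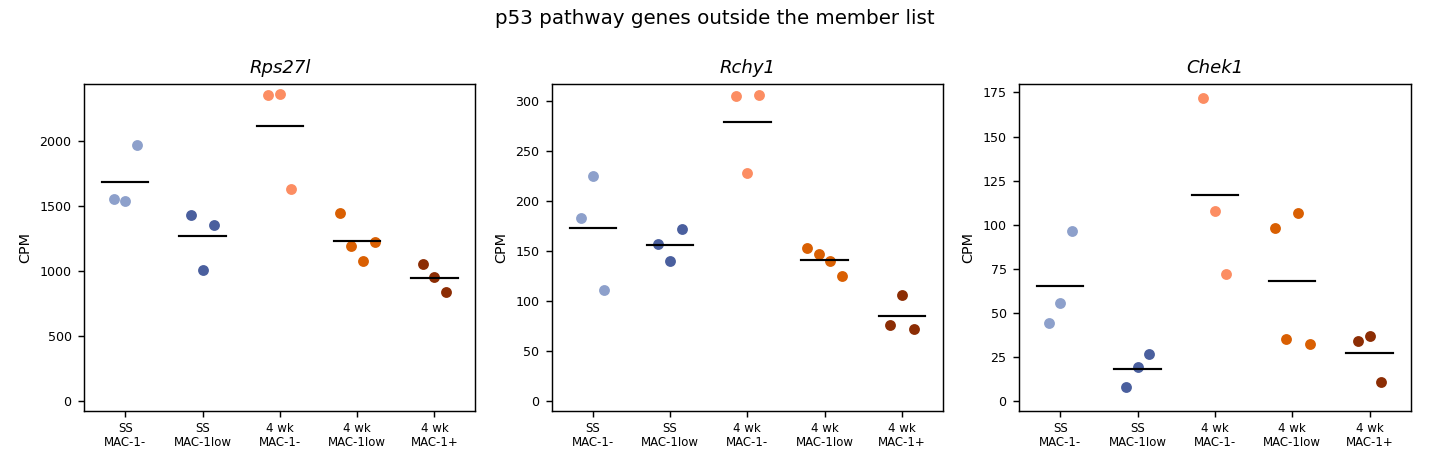
CPM (vertical axes, linear, from 0) of *Rps27l*, *Rchy1* and *Chek1* in each of the 16 samples by population, with points for samples and lines for the population mean. The 3 samples of 4 week MAC-1+ lie below the 3 samples of 4 week MAC-1- in all 3 genes, at 837 to 1058 against 1635 to 2369 CPM for *Rps27l*. These genes were named for their small p in these same data. In this comparison 15 of the 57 tested pathway genes and 21.7% of all genes did not overlap.

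Other pathway genes had the smallest unadjusted p of a comparison without passing the test in edgeR. *Ep300* and *Crebbp*, which encode acetyltransferases that acetylate p53, had log2 fold changes of 1.28 ± 0.47 and 1.09 ± 0.42 in 4 week MAC-1+ against MAC-1- (SE, edgeR adjusted p = 0.236 and 0.263). *Chek1*, a checkpoint kinase gene, was at 7.88, 19.5 and 26.5 CPM in SS MAC-1low and 44.4, 55.3 and 96.4 CPM in SS MAC-1- samples (log2 fold change -1.86 ± 0.64, SE, edgeR adjusted p = 0.499). Its log2 fold change was 1.38 ± 0.44 for 4 week against SS in the mean of MAC-1- and MAC-1low (edgeR adjusted p = 0.195) and -2.09 ± 0.65 for 4 week MAC-1+ against MAC-1- (edgeR adjusted p = 0.139). *Pml*, a nuclear body gene, had a change of -1.16 ± 0.37 for 4 week against SS (edgeR adjusted p = 0.193), and *Ppp1r13b*, which encodes ASPP1, of -0.87 ± 0.34 (0.297). *Atr*, another checkpoint kinase gene, had a change of -1.53 ± 0.50 in 4 week MAC-1+ against MAC-1low (edgeR adjusted p = 0.611). Of these genes DESeq2 called *Chek1* (adjusted p = 0.0237), *Ep300* (0.0564) and *Crebbp* (0.0788) in 4 week MAC-1+ against MAC-1-, beside 10.2% of all genes. There limma-voom called *Ep300* (adjusted p = 0.0878) and *Chek1* (0.0968), beside 6.34%. In SS MAC-1low against MAC-1- DESeq2 called *Chek1* (adjusted p = 0.0739), beside 5.6%. In the mean of time it called *Pml* (0.0258), *Chek1* (0.0310) and *Ppp1r13b* (0.0775), beside 8.51%.

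Several listed genes had very low counts in 1 of the populations compared. *Kat5*, an acetyltransferase gene, was at 0 in all 3 SS MAC-1- samples and at 7.79 to 12.6 CPM in 4 week MAC-1- (edgeR adjusted p = 0.258, and 0.104 in the mean of time). In the mean of time it was past the threshold in DESeq2 (adjusted p = 2.99e-05) and limma-voom (0.0180). The same held in edgeR without a filter on low counts (0.0457), with a stricter filter (0.0767) and with only the populations compared (0.0705). It also held in edgeR without 4 week MAC-1+ replicate 2 (0.0730). In 4 week against SS MAC-1- *Kat5* was past the threshold in DESeq2 (0.000926) and limma-voom (0.0413). *Kat5* shares exon bases with *Rnaseh2c* on the opposite strand. *Hipk2*, a kinase gene, was at 0 to 0.367 CPM in SS MAC-1- and 3.45 to 22.7 CPM in SS MAC-1low (edgeR adjusted p = 0.409), and *Ei24* at 0.660 to 2.72 and 7.44 to 25.3 CPM (edgeR adjusted p = 0.482). In edgeR *Hipk2* did not pass the test of the interaction either (adjusted p = 0.383). DESeq2 called *Hipk2* in the interaction (adjusted p = 0.00139), beside 4.68% of all genes. In SS MAC-1low against MAC-1- DESeq2 called *Hipk2* (adjusted p = 0.000270) and *Ei24* (0.0115), beside 5.6%, and limma-voom called neither. *Eda2r*, a death receptor gene, was at 0 in all SS MAC-1low samples and at 0 to 19.98 CPM in 4 week MAC-1low (edgeR adjusted p = 0.533). DESeq2 called *Eda2r* in that comparison (adjusted p = 2.69e-11), beside 4.01% of all genes. *Ddit4* was at 0 to 0.150 CPM in 4 week MAC-1low and 0.158 to 1.71 CPM in 4 week MAC-1+ (edgeR adjusted p = 0.718).

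*Cdkn1a*, which encodes p21, the best known mediator of arrest by p53, was hardly counted. It had 4, 68 and 0 counts in the SS MAC-1- samples, 0, 0 and 81 in those of SS MAC-1low and 20, 0 and 9 in 4 week MAC-1-. It had 0, 0, 4 and 1 counts in 4 week MAC-1low and 0, 0 and 2 in 4 week MAC-1+. Its joint adjusted p was 0.654 in edgeR.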

How the data were processed

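The deposited table holds raw counts of reads per gene and sample. The authors made it with STAR inside an nf-core pipeline. Which program counted the reads, on which build and annotation, is not given in the sources used here. Samples were grouped by their labels, and members were found by gene name. The members, lists and tests were chosen with earlier results of these data known.

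The main test was edgeR 4.0.16 in R 4.3.3 (TMM scaling, default filter, robust quasi-likelihood), with 1 mean per population over all 16 samples, Benjamini-Hochberg adjustment over 13661 genes and a threshold of 0.1. DESeq2 1.42.0, limma-voom 3.58.1, other filters, scalings, thresholds and samples were alternatives. All 3 tools were tried on simulated data. Log2 CPM used a prior count of 2. Named were all members, *Cdkn1a*, called pathway genes and, per comparison and direction, up to 2 pathway genes with the smallest unadjusted p below 0.05. Places, exon lengths and shared sequence came from GENCODE M21 (98.2% of identifiers matched), and promoter windows from RefSeq. Figures used matplotlib 3.10.9.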

Additional observations from a re-analysis of the deposited data

Results flagged for a closer look

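In 4 week MAC-1low HSCs, the only population of 4 samples, replicate 4 was far from the other 3 by its share of the range in 2 of the genes named. *Perp*, a target gene of p53 in cell death, was at 11.8 CPM there and at 0 in the others, a gap that is the whole range by construction. *Perp* was at 0 in 12 of the 16 samples, at 25.2 CPM in 4 week MAC-1+ replicate 1 and at 6.53 CPM in SS MAC-1- replicate 1, so this value alone does not set the sample apart. Its change with MAC-1 and time had an edgeR adjusted p of 0.491. *Pml* was at 51.2 CPM there and at 22.7 to 26.3 CPM in the others. Both gaps exceeded Dixon's critical value as a share of the range, a mark that chance passes in about 1 of 20 groups. No member was marked in this way.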

How the results depend on the processing

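All 930 alternative values of 41 log2 fold changes, 13 of them of members, kept their direction, and 39 had another call, 23 of these in DESeq2. Most of the 41 were chosen for an unadjusted edgeR p below 0.05 in these same samples, and most alternatives only left out 1 sample. Agreement in direction was therefore likely from the start and is no separate evidence. The limits are few samples per population, sparse counts and small numbers of sorted cells. DESeq2 called more: 1 member in the joint test, 3 in SS MAC-1low against MAC-1-, 2 in 4 week against SS MAC-1-, 1 in the mean of time and 1 in the interaction, against 0 by edgeR. Over all genes it called 10.9% in the joint test, where edgeR called 2.22%. Pathway genes called in the joint test were 7 with DESeq2, 6 without a filter on low counts and 1 to 2 leaving out a sample (1, with *Rchy1* lost, without 4 week MAC-1- replicate 1 or 3 or 4 week MAC-1+ replicate 3), against 2. In 4 week MAC-1+ against MAC-1- they were 6 with DESeq2 (10.2% of all genes) and 4 with limma-voom (6.34%), against 2, and 2 to 3 leaving out a sample (3, with *Ep300*, without SS MAC-1- replicate 2). In 4 week MAC-1low against MAC-1- they were 2 with DESeq2 (3.12%), 3 with limma-voom (2.26%), 1 without a filter, 1 with a stricter filter and 0 to 2 leaving out a sample (2 without SS MAC-1- replicate 3, 1 without 4 week MAC-1- replicate 3), against 0. DESeq2 called 1 in 4 week MAC-1+ against MAC-1low (2.42%), 4 in SS MAC-1low against MAC-1- (5.6%), 5 in 4 week against SS MAC-1- (6.83%; limma-voom 1 and 0.608%), 2 in MAC-1low (4.01%), 6 in the mean of time (8.51%) and 2 in the interaction (4.68%), against 0. In the mean of time 1 was called with limma-voom (1.94%), 2 without a filter, 1 with a stricter filter, 1 with only the populations compared and 0 to 1 leaving out a sample (1, *Kat5*, without 4 week MAC-1+ replicate 2). Leaving out samples for the ratios of *Zmat3* was chosen after seeing the data. The cause was not tested.

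Deviations of samples with the same replicate number correlated at -0.02 to 0.04 over 30 pairs, so these numbers gave no sign of pairing. The labels also hold another number per sample, and pairing by it was not examined. With the replicate number as a block, 0 members were called in the joint test, and 177 of all genes in place of 303.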
